A study of Mus musculus with 6 samples.

Results

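The integrated stress response genes described here are 10 genes of the ATF4 pathway, namely Atf4, Atf5, Ddit3, Trib3, Asns, Chac1, Sesn2, Ppp1r15a, Fgf21 and Gdf15. They were selected by gene name from the 34745 genes of the deposited liver expression table. All 10 were listed, and all 10 were among the 13734 genes tested. Asns, whose raw counts in saline livers were 3, 7 and 8, passed the filter on low counts through its APAP libraries alone.

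In the integrated stress response, kinases that sense amino acid shortage, heme deficiency, double-stranded RNA or unfolded protein phosphorylate the translation factor eIF2. General translation falls, while mRNAs with short upstream reading frames, Atf4 being the best known, are translated more. ATF4 then activates genes of amino acid supply, feedback regulators of the pathway and, in liver, the circulating hormones FGF21 and GDF15. Acetaminophen (APAP) is oxidized in hepatocytes to a reactive metabolite that depletes glutathione and injures mitochondria.

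Livers came from wild-type C57BL/6J mice of 8 to 10 weeks, which were male by the study's methods and had been fasted for 12 hours. One group received APAP at 300 mg/kg by intraperitoneal injection and was sampled after 12 hours, and the control group received saline. Each group comprised 3 livers, of which the APAP libraries 1 and 3 (APAP1 and APAP3) and 3 saline libraries (WT1, WT2 and WT3) were analysed, while APAP replicate 2 was not analysed here. The WT columns were read as saline from their name alone, since no label ties them to the numbered saline mice, and that they are these livers is not certain. The comparison asks how an APAP overdose changed liver gene expression. All samples of the series carry the same genotype label, to which the WT columns are tied by name only.

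The 5 libraries held 13378445 to 15976339 counts, and 3 counts corresponded to 0.176 to 0.269 CPM (counts scaled to library size) after TMM normalization. Genes of the Y chromosome summed to 126 to 171 CPM in the APAP libraries and to at most 0.134 CPM in the saline libraries, while Xist measured 0.764 and 1.73 CPM in APAP1 and APAP3, beside 290, 914 and 882 CPM in WT1, WT2 and WT3. The libraries labelled WT thus carried the RNA pattern of female livers, although the methods name male mice, so the identity of this control group is in doubt and effects of APAP, of sex and of any other difference in origin cannot be told apart for any gene below. Hepatocyte markers summed to 77233 and 120271 CPM in APAP1 and APAP3 and to 120138 to 164848 CPM in saline, so markers of the labelled tissue were abundant in every library. Neutrophil markers summed to 120 and 76.8 CPM against 4.57 to 8.35 CPM. Of the 8 listed genes 7 were tested, and all 7 were higher at an adjusted p under 0.05, beside 3.70% of all genes. Of these 7, S100a8, Retnlg, Mmp8, Cxcr2 and Ngp had too few saline counts to pass the filter on low counts without their APAP libraries. The summed ranges of APAP and saline overlapped for monocyte and macrophage (79.9 to 151 against 86.1 to 130 CPM), Kupffer (198 to 369 against 191 to 271 CPM), endothelial (81.8 to 123 against 87.3 to 113 CPM), stellate (268 to 334 against 310 to 370 CPM) and lymphocyte markers (3.34 to 3.70 against 3.21 to 5.74 CPM). In these lists, with genes named after their values were seen, Ccr2 of monocytes was 3.14-fold higher (adjusted p 0.0401) and Col1a1 of stellate cells 3.92-fold higher (adjusted p 0.0498) by edgeR's quasi-likelihood test. Marco (5.60-fold), Cd68 (2.22-fold) and Lyve1 (2.43-fold) were higher and the hepatocyte gene Ttr was lower at an unadjusted P under 0.05 only. Fitted values were higher for 3 of 5 monocyte and macrophage, 2 of 5 Kupffer, 3 of 4 endothelial and 1 of 5 stellate markers. The stellate genes Lrat, Reln, Dcn and Des were fitted lower, with log2 fold changes from -0.63 to -0.06. Vsig4 of Kupffer cells (-0.57) and Clec4g of endothelial cells (-0.82) were also fitted lower. None of these 6 lower values had an unadjusted P under 0.05. In bulk liver, fewer cells of a type and less RNA per cell cannot be told apart, and the part of these shifts in the results below was not tested.

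ATF4 binds DNA together with C/EBP proteins at the C/EBP-ATF element, and the promoters of the members were searched for it as the letters TGATGNAA, or TTNCATCA on the other strand. The searched window ran from 250 bases before to 50 after each gene's start in the RefSeq table (GRCm38.p6). A match was found in 4 of 10 members, in 3.97% of 32817 promoters of this length, and in 2.80% of the 10127 tested genes that had one. The 4 member sites are shown, with those of Atf3 and Slc7a11 as the pathway genes with a match that moved most, since they carry the element through which the pathway is known to reach its targets. Each line gives 30 bases, 5′ to 3′ on the strand of the gene, with the matched letters in capitals.
Trib3, chr2:152344028-152344057, minus strand: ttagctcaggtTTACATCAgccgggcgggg
Asns, chr6:7693214-7693243, minus strand: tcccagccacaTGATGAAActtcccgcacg
Chac1, chr2:119351038-119351067, plus strand: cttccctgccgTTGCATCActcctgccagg
Fgf21, chr7:45615611-45615640, minus strand: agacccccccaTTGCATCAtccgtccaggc
Atf3, chr1:191183425-191183454, minus strand: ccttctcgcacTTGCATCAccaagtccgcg
Slc7a11, chr3:50443661-50443690, minus strand: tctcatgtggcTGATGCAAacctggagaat

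The first base of the match lay 139 bases before the start in Fgf21, 193 before it in Chac1, 23 before it in Asns and 14 after it in Trib3. In the other 6 members these letters were not found in the window. Of 103 genes in the surrounding pathway lists, 80 had a promoter in the table and 15 of these held a match, with Slc7a11 and Aars holding a pair each. TGATGCAA was the commonest form, with 15 of the 21 matches in members and lists. A match describes the letters only, and binding was not measured.

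**Figure D1:**
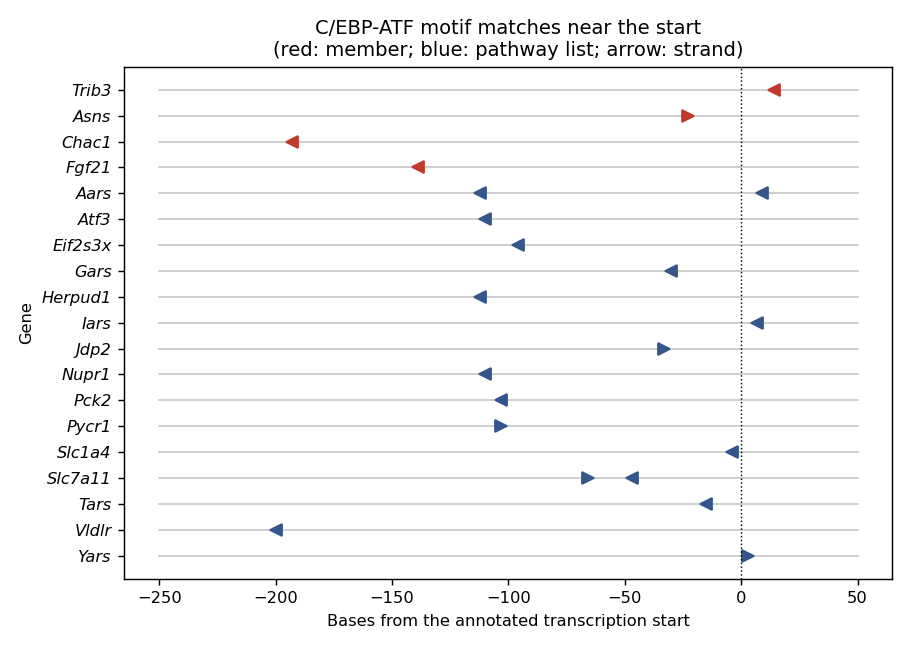
Position of each C/EBP-ATF match (triangle, pointing along its strand) in bases from the annotated start, for the 4 members in red and the 15 pathway genes in blue. The member matches lie between 193 bases before and 14 after the start.

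The members were mixed in their mRNA leaders, the stretch ahead of the coding sequence through which eIF2 phosphorylation acts on Atf4. In the GENCODE M21 transcript with the longest coding sequence, 7 of 10 members held an upstream start codon, against 51.5% of 12707 tested protein-coding genes, a gap of few genes at this number of members. A reading frame that opens upstream and overlaps the main one was present in 30.0% of members and 16.4% of genes. The Atf4 leader of 594 bases held 3 upstream start codons, 2 with closed frames and 1 with a frame that overlaps the coding sequence. Atf5, with 373 bases, had 1 frame of each kind. Ppp1r15a had the most upstream start codons, 7 in 764 bases, and Gdf15 had 4, all closed, in 483 bases. Trib3, Chac1 and Fgf21 had none. RNA-Seq counts transcripts, so translation through these leaders was not measured.

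After APAP, Asns and Gdf15 rose, while 0 members were lower, also at an unadjusted P under 0.05, in edgeR's quasi-likelihood test. The transcripts of the transcription factors Atf4 and Ddit3, of the pseudokinase gene Trib3 and of the phosphatase subunit gene Ppp1r15a were fitted 1.66 to 3.50 times as high as in saline livers but did not pass an adjusted p of 0.05. Atf5, Chac1, Sesn2 and Fgf21 overlapped between the groups and had wide or near-zero fitted changes.

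With edgeR's quasi-likelihood test, adjusted over all tested genes by Benjamini-Hochberg, 2 of 10 members had a higher level in APAP at an adjusted p under 0.05, against 3.70% of all genes. In either direction, 7.23% of genes passed. Of the 2 members, Asns entered the test through its APAP libraries alone, and it is also in the counts and the median below. The members were chosen with earlier results of these data known, so these shares describe the members and test nothing. At the study's thresholds, meaning 1.5-fold or more with P below 0.05 before adjustment, 6 of 10 members were higher (Atf4, Ddit3, Trib3, Asns, Ppp1r15a and Gdf15) and 0 were lower, against 12.3% of genes higher. This count fell to 2 without APAP3 and to 3 without WT2, and the count at the adjusted p fell to 1 without either. Both APAP libraries lay above all 3 saline libraries for 5 of 10 members (Atf4, Trib3, Asns, Ppp1r15a and Gdf15), against 24.0% of genes. The median fitted log2 fold change was 1.31 over the members and 0.03 over all genes. Of the genes called at the adjusted p, 51.2% were higher in APAP with TMM and 77.8% when libraries were scaled by their size alone, and at the study's thresholds 52.5% and 82.0%. Scaling by size alone moved the median of all genes to 0.42 on the log2 scale, and 5 members then passed the adjusted p.

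**Figure D2:**
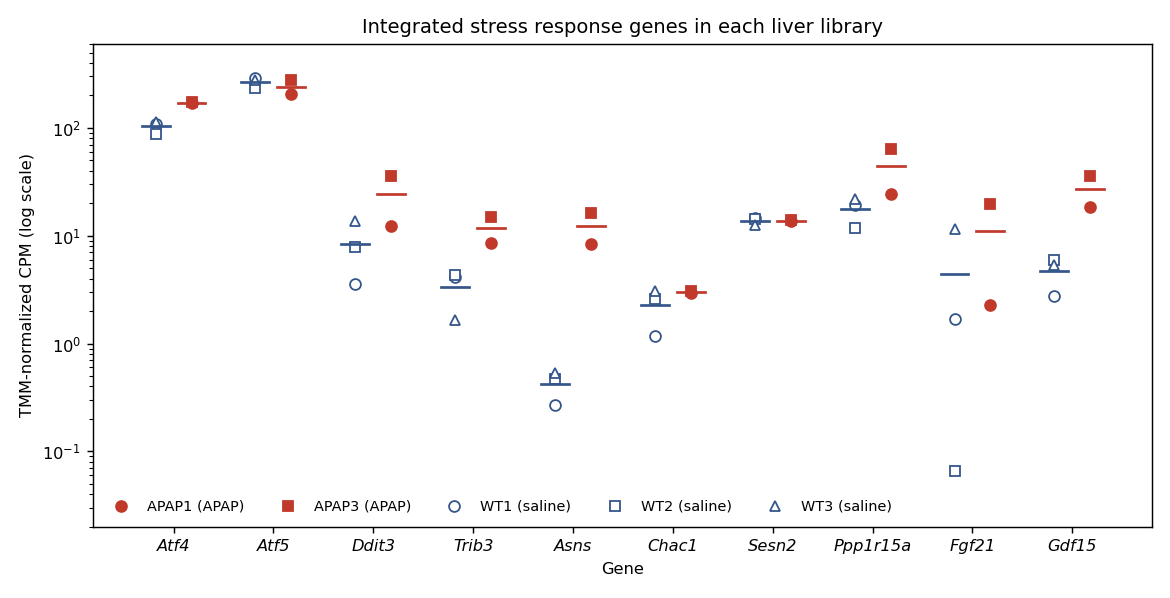
TMM-normalized CPM (log axis) of each member in each library, with saline as open blue and APAP as filled red symbols and a bar at each group mean. The groups are apart for Atf4, Trib3, Asns, Ppp1r15a and Gdf15 and overlap for the other 5 members.

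Of the transcription factors, Atf4, the central activator of the pathway (ENSMUSG00000042406, chr15:80255184-80257540, plus strand), was at 171 and 173 CPM in APAP1 and APAP3 and at 108, 88.6 and 113 CPM in WT1, WT2 and WT3. Both APAP libraries were above all saline libraries. On this TMM-normalized scale the APAP libraries lay closer to each other than the saline libraries did. The log2 fold change was 0.73 (SE 0.21, 95% interval 0.22 to 1.24), with an adjusted p of 0.0904 in edgeR's quasi-likelihood test. Atf4 passed in DESeq2 (adjusted p 0.0240) and with library size only (adjusted p 0.0262), and over all 13 alternatives the adjusted p ranged from 0.0240 to 0.310.

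Ddit3 encodes CHOP, a factor linked to cell death under lasting stress (chr10:127290774-127296288, plus strand), and was at 12.4 and 36.1 CPM in APAP1 and APAP3. The saline libraries held 3.59, 7.84 and 13.6 CPM. The groups overlapped, because WT3 was above APAP1, and APAP3 was the highest library. The fitted log2 fold change was 1.53 (SE 0.60, 95% interval 0.11 to 2.96), with an unadjusted P of 0.0387 and an adjusted p of 0.175 in edgeR's quasi-likelihood test. Without APAP3 it was 0.56. From gene start to gene end it overlaps Mars, a gene on the other strand, by 68 bases. Of its 50-base words, 6.66% also occur in another annotated gene entry, so its counts are uncertain to that extent.

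Atf5, a relative of Atf4 that takes part in the mitochondrial stress response (chr7:44812256-44816599, minus strand), measured 207 and 276 CPM in APAP1 and APAP3, beside 291, 236 and 279 CPM in WT1, WT2 and WT3. APAP1 was the lowest and WT1 the highest library, with APAP3 inside the saline range. Its log2 fold change was -0.15 (SE 0.25, 95% interval -0.74 to 0.43, adjusted p 0.751 by edgeR's quasi-likelihood test). The sign turned to 0.23 with library size only and to 0.042 without APAP1. Atf5 and Il4i1 overlap on opposite strands by 512 bases, and the strand setting of the counting is not given in the sources used here.

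Asns encodes asparagine synthetase, an enzyme of amino acid supply, and showed the largest fitted change of the 10 members. The gene (ENSMUSG00000029752, chr6:7675169-7693254, minus strand) was at 8.40 and 16.2 CPM in APAP1 and APAP3, from raw counts of 143 and 262. In WT1, WT2 and WT3 it was at 0.269, 0.465 and 0.534 CPM. The lower APAP library was 15.7 times as high as the highest saline library. Asns rose 28.0-fold, by 4.81 on the log2 scale (SE 0.46, 95% interval 3.71 to 5.90), with an adjusted p of 0.00404 in edgeR's quasi-likelihood test. The adjusted p was below 0.05 in all 12 alternatives that tested the gene, with log2 fold changes of 4.25 to 5.21 and a highest adjusted p of 0.0381. The filter of 10 counts in every library removed it, since its saline counts were too low.

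Trib3, a pseudokinase that restrains ATF4 activity and AKT signaling (chr2:152337422-152344032, minus strand), measured 8.52 and 15.02 CPM in APAP1 and APAP3. The saline libraries held 4.12, 4.32 and 1.67 CPM. The groups did not overlap, and WT3 was the lowest library. The fitted log2 fold change was 1.81 (SE 0.47, 95% interval 0.70 to 2.92), and the adjusted p was 0.0668 in edgeR's quasi-likelihood test. It passed in 6 of 13 alternatives, over which the adjusted p ranged from 0.00795 to 0.278.

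Chac1 encodes a glutathione-degrading enzyme and is a target of ATF4 and CHOP (chr2:119351229-119354381, plus strand). Its level was 2.94 and 3.09 CPM in APAP1 and APAP3, beside 1.17, 2.59 and 3.07 CPM in WT1, WT2 and WT3. WT3 was at the level of both APAP libraries, and WT1 alone was much lower. The log2 fold change was 0.39 (SE 0.49, 95% interval -0.77 to 1.56, adjusted p 0.670 by edgeR's quasi-likelihood test), so changes of either sign are inside the interval.

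Sesn2, sestrin 2, is a sensor that limits mTORC1 and is activated by ATF4, NRF2 and p53 (chr4:132492032-132510501, minus strand). Its level was 13.6 and 13.9 CPM in APAP1 and APAP3 and 14.5, 14.1 and 12.6 CPM in WT1, WT2 and WT3. Of the 10 members it had the lowest ratio of highest to lowest library, and both APAP libraries lay within the saline range. The log2 fold change was 0.00090 (SE 0.21, 95% interval -0.49 to 0.49, adjusted p 0.999 by edgeR's quasi-likelihood test). The annotated gene Gm12981 overlaps Sesn2 on the same strand and had at most 2 counts in any library.

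Ppp1r15a encodes GADD34, the inducible phosphatase subunit that dephosphorylates eIF2 and closes the feedback loop (chr7:45522916-45526268, minus strand). It measured 24.5 and 63.8 CPM in APAP1 and APAP3, beside 19.2, 11.8 and 22.0 CPM in WT1, WT2 and WT3. The groups did not overlap, but APAP1 was only slightly above WT3. The fitted log2 fold change was 1.32 (SE 0.43, 95% interval 0.29 to 2.35), with an adjusted p of 0.120 in edgeR's quasi-likelihood test. Without APAP3 it was 0.46, and without APAP1 it was 1.86. From gene start to gene end it overlaps Tulp2 on the other strand by 717 bases, and overlap of exons was not computed.

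Of the secreted members, Gdf15, a hormone of cell stress that acts on the hindbrain receptor GFRAL (ENSMUSG00000038508, chr8:70629393-70632456, minus strand), was at 18.4 and 36.0 CPM in APAP1 and APAP3. In WT1, WT2 and WT3 it was at 2.78, 5.98 and 5.34 CPM. Each APAP library was above every saline library. Gdf15 rose 5.74-fold, by 2.52 on the log2 scale (SE 0.41, 95% interval 1.55 to 3.49), with an adjusted p of 0.0187 in edgeR's quasi-likelihood test. The call was lost without APAP3 (log2 fold change 1.95, adjusted p 0.0806) and without WT2 (2.73, adjusted p 0.0729). It held in the other 11 of 13 alternatives, and the adjusted p over all of them was at most 0.0806.

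Fgf21, a fasting and stress hormone of the liver (chr7:45613907-45615490, minus strand), was the most variable member. Its raw counts were 39 and 318 in APAP1 and APAP3 and 19, 1 and 173 in WT1, WT2 and WT3. On the CPM scale these were 2.29 and 19.7 against 1.70, 0.0664 and 11.6, and the value of WT2 is below the level of 3 counts. The groups overlapped, with WT3 above APAP1, and APAP3 was 8.58 times as high as APAP1. The fitted log2 fold change was 1.29 (SE 1.40, 95% interval -2.03 to 4.62, adjusted p 0.620 by edgeR's quasi-likelihood test), and it was -0.97 without APAP3.

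**Figure D3:**
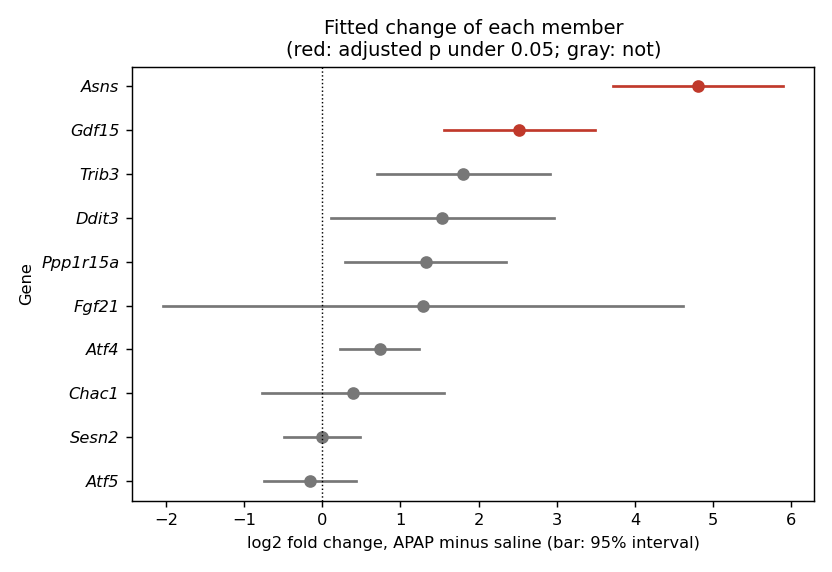
Fitted log2 fold change of each member (point) with its 95% interval (bar), APAP minus saline, from edgeR's quasi-likelihood fit. Asns (4.81) and Gdf15 (2.52) are red for an adjusted p under 0.05, and the interval of Fgf21, from -2.03 to 4.62, is the widest.

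The members differed widely in level when counts were divided by exon length. In saline livers Atf5 was at 135 ± 14.4 RPKM (CPM per kilobase of exon, SD, n = 3) and Atf4 at 43.8 ± 5.54 RPKM, and the libraries of these 2 genes did not overlap with each other or with any other member. Ppp1r15a followed at 6.01 ± 1.79 RPKM, Ddit3 at 4.86 ± 2.92 RPKM, Fgf21 at 4.67 ± 6.54 RPKM and Sesn2 at 3.96 ± 0.29 RPKM. These 4 neighbours overlapped and have no firm order. Gdf15 at 2.54 ± 0.91 RPKM was below Sesn2 in every library, and it overlapped Trib3 at 1.59 ± 0.69 RPKM, which overlapped Chac1 at 1.39 ± 0.61 RPKM. Asns had the lowest mean on this scale at 0.155 ± 0.05 RPKM, although Fgf21 was lower in WT2, at 0.0699 RPKM beside 0.170 RPKM for Asns.

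In APAP livers Atf5 at 121 RPKM and Atf4 at 72.9 RPKM were still the highest. Asns, at 3.07 and 5.92 RPKM, was no longer below Chac1, at 1.79 and 1.89 RPKM. Its range overlapped that of Trib3, at 4.01 and 7.07 RPKM, and enclosed that of Sesn2, at 3.92 and 4.002 RPKM. Gdf15, at 9.96 and 19.4 RPKM, lay within the ranges of Ppp1r15a at 8.34 and 21.7 RPKM and of Ddit3 at 7.24 and 21.1 RPKM.

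The APAP libraries were not alike in these genes. All 10 members were higher in APAP3 than in APAP1, with a median log2 ratio of 0.88, while 51.7% of 13587 genes counted in both were higher there, with a median of 0.02. APAP3 was the highest of the 5 libraries for 8 of 10 members, against 20.5% of genes. With size factors all 10 were still higher in APAP3, with upper-quartile factors 8 and with library size only 7, and with each scaling 9 of 10 lay above the median ratio of all genes. The members with the largest gaps were Fgf21, Ddit3 and Ppp1r15a, and Atf4 and Sesn2 were nearly equal. Beside this, hepatocyte markers summed to 77233 CPM in APAP1 and 120271 CPM in APAP3, and neutrophil markers to 120 and 76.8 CPM, and their part in the gap was not tested. Within saline, WT1 was the lowest library for 4 of 10 members and the highest for Atf5 and Sesn2.

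**Figure D4:**
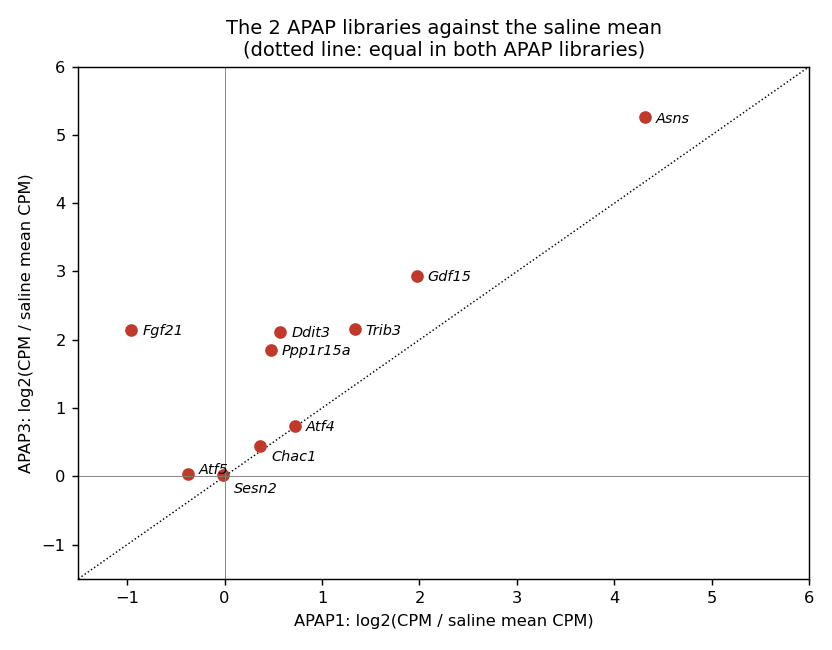
Each member's log2 ratio to the saline mean CPM in APAP1 (x axis) and APAP3 (y axis), with a dotted line where both are equal. All 10 members lie above the line, Atf4 and Sesn2 close to it and Fgf21 farthest from it.

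The 10 lists of pathway genes around the members held 103 genes, of which 95 were tested. At an adjusted p under 0.05 (edgeR's quasi-likelihood test), 12 rose and 3 fell, beside 3.70% of all genes higher and 7.23% in either direction. With library size only 21 rose and 2 fell, and the 15 calls dropped to 5 without APAP3 or WT2 and to 9 without APAP1 or WT1. The median log2 fold change over the 95 genes was 0.39, beside 0.03 for all genes.

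Of the 4 kinases that phosphorylate eIF2, 1 rose at the adjusted p, beside 3.70% of all genes. Eif2ak4, which encodes the amino acid sensor GCN2, was at 18.9 and 37.5 CPM in APAP1 and APAP3 and at 8.60, 11.1 and 9.02 CPM in WT1, WT2 and WT3. The groups were apart, and APAP3 was the highest library, as for 8 of the members. The log2 fold change of Eif2ak4 was 1.55 (SE 0.32, adjusted p 0.0366 by edgeR's quasi-likelihood test), and the call was lost without APAP3 (0.97) or without any saline library. Eif2ak3, the unfolded protein sensor PERK, had a fitted log2 fold change of 0.93 (adjusted p 0.248), Eif2ak2, the RNA sensor PKR, 0.34 (adjusted p 0.410) and Eif2ak1, the heme-regulated kinase, -0.38 (adjusted p 0.308). The value of Eif2ak1 turned to 0.030 with library size only.

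None of the 10 genes of eIF2, its exchange factor eIF2B and the phosphatase passed the adjusted p in edgeR's quasi-likelihood test. With DESeq2 1 passed, beside 2093 of all 13734 genes. In edgeR's test 4 were higher and 1 was lower at an unadjusted P under 0.05. At the study's thresholds 2 were higher and 0 lower, beside 1696 and 1532 of all genes. Eif2s1, which encodes the phosphorylated subunit, was at 68.0 and 58.7 CPM against 38.0, 37.9 and 38.7 CPM, with a log2 fold change of 0.73 (adjusted p 0.0625). Eif2b3, a subunit of eIF2B, had 0.91 (adjusted p 0.115). Eif2s3x, the X-linked gene of the third subunit, was at 25.6 and 25.1 CPM against 42.2, 33.7 and 35.3 CPM (-0.55, adjusted p 0.153). Its Y-linked copy Eif2s3y, named after its values were seen, measured 51.9 and 35.4 CPM in APAP1 and APAP3 and had 0 counts in every saline library, like the other Y-linked genes.

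Of 7 bZIP factors that pair with ATF4 or CHOP or act beside them, 2 rose and 1 fell at the adjusted p. Of all genes, 3.70% were called higher and 7.23% in either direction. Atf3, a stress-induced repressor and ATF4 target, was at 195 and 110 CPM in APAP1 and APAP3 and at 2.06, 1.33 and 3.67 CPM in saline, and rose by 6.01 on the log2 scale (adjusted p 0.00219 by edgeR's quasi-likelihood test). With TMM it was higher in APAP1, where all 10 members were lower than in APAP3. Jun, an AP-1 subunit, was at 88.0 and 555 CPM against 15.3, 10.8 and 36.0 CPM and rose by 3.95 (adjusted p 0.0379), with 2.07 and no call without APAP3 and no call without WT1 or WT2. Cebpa, a factor of the differentiated hepatocyte and a partner of ATF4 in vitro, fell by 1.35 on the log2 scale (adjusted p 0.0330). That call was lost with library size only (-0.93) and without any library other than WT3.

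Amino acid metabolism and transport, the longest list, had 5 genes called higher and 1 lower among 18 tested of 20. Of all genes, 3.70% were called higher and 7.23% in either direction. The cystine transporter gene Slc7a11 measured 42.0 and 17.6 CPM in APAP1 and APAP3 and had at most 3 counts in each saline library. Its mean was at least 111-fold higher than the level of 3 counts in the shallowest saline library after scaling, 0.269 CPM, and APAP3 alone was at least 65.5-fold higher. Psat1, an enzyme of serine synthesis, was at 48.6 and 41.0 CPM against 0, 0.598 and 0.668 CPM and rose by 6.61 on the log2 scale (adjusted p 0.00376 by edgeR's quasi-likelihood test). Like Asns, Slc7a11 and Psat1 passed the filter on low counts through their APAP libraries alone, and both are among the 5 higher calls. Slc1a4, a transporter of neutral amino acids, rose by 1.88 (adjusted p 0.0238), and Mthfd1l, a mitochondrial folate enzyme, by 1.91 (adjusted p 0.0282), but both calls were lost without APAP1, APAP3 or WT2, and that of Mthfd1l also without WT1 or WT3. Cth, which makes cysteine from cystathionine, went the other way. It measured 74.4 and 75.3 CPM in APAP1 and APAP3, beside 1203, 1261 and 1435 CPM in saline, and fell by 4.12 on the log2 scale (adjusted p 0.00183). The median of the list was 0.97, also with Slc7a11 at its bound.

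The list of ATF4 targets that charge or export tRNA held aminoacyl-tRNA synthetase genes and Xpot, a tRNA exportin gene. Of its 13 genes, 0 passed in edgeR's quasi-likelihood test and 1 in DESeq2, which called 2093 of all 13734 genes. In edgeR's test 3 were higher at an unadjusted P under 0.05. At the study's thresholds 2 were higher and 0 lower, beside 1696 and 1532 of all genes. The smallest P was that of Gars, at 64.2 and 53.7 CPM against 38.7, 34.2 and 34.9 CPM (0.71, adjusted p 0.0746), followed by Wars (0.62, adjusted p 0.171) and Lars (0.47, adjusted p 0.197). The median log2 fold change of the 13 was 0.10, below that of the members.

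Among 10 tested of 12 other targets of ATF4 or CHOP, Eif4ebp1 rose and Vldlr fell at the adjusted p. In all genes 3.70% were called higher and 7.23% in either direction. Eif4ebp1, a repressor of cap-dependent translation, was at 66.5 and 51.1 CPM against 30.6, 20.0 and 23.5 CPM (log2 fold change 1.25, adjusted p 0.0338 by edgeR's quasi-likelihood test). Vldlr, a lipoprotein receptor, was at 1.23 and 2.72 CPM against 9.95, 26.4 and 16.3 CPM and fell by 3.15 (adjusted p 0.0238). Both calls were lost without APAP1, APAP3 or WT2, and that of Eif4ebp1 also without WT3. Tnfrsf10b, a death receptor gene under CHOP, had 2.03 at low counts (adjusted p 0.152), and it also passed the filter only through its APAP libraries.

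The other arms of the unfolded protein response, which run through ATF6 and IRE1, had 1 gene higher of 16 at the adjusted p. Of all genes, 3.70% were called higher. At the study's thresholds 3 of the 16 were higher and 1 lower, beside 1696 and 1532 of all genes. Sdf2l1, a chaperone cofactor of the endoplasmic reticulum, was at 25.7 and 55.6 CPM against 15.8, 12.6 and 13.4 CPM and rose by 1.55 on the log2 scale (adjusted p 0.0413 by edgeR's quasi-likelihood test). The call was lost without APAP3 (0.88) or without any saline library. Creld2 had 1.34 (adjusted p 0.0879) and Edem1, of protein degradation, -0.94 (adjusted p 0.112).

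**Figure D5:**
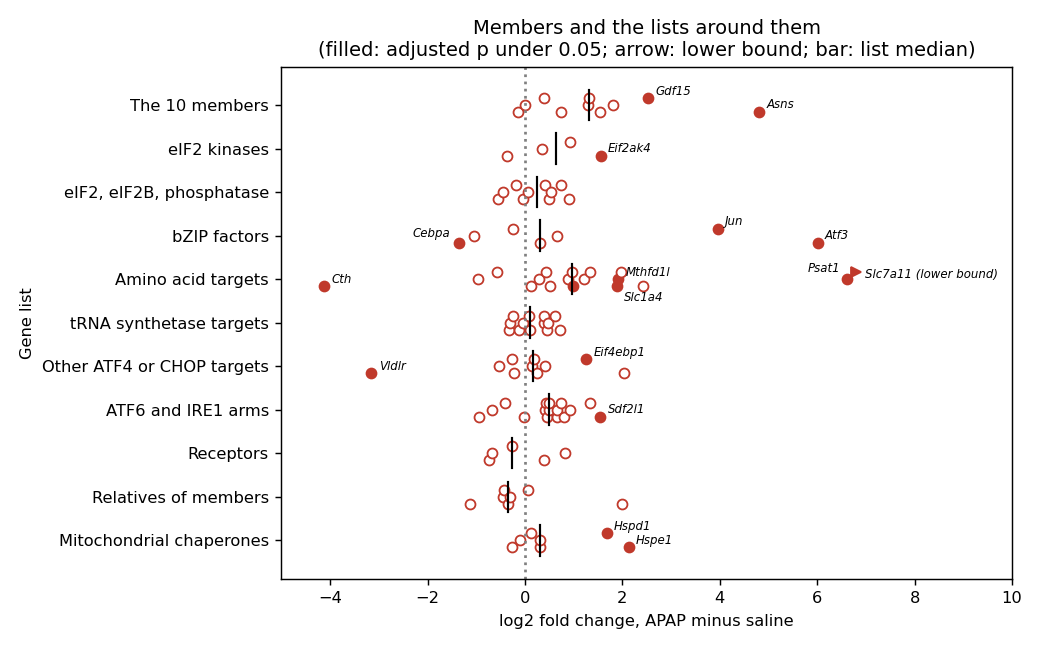
Fitted log2 fold changes, APAP minus saline, of the members and the 10 lists, 1 symbol per tested gene, filled where the adjusted p was under 0.05, with a black bar at the median of each list. The arrow gives Slc7a11 at its lower bound, and the median is 1.31 for the members, 0.97 for amino acid targets and at most 0.63 for the other lists.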

How the data were processed

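Gene-level RNA-Seq of mouse liver was analysed in 2 APAP and 3 saline libraries. The authors sequenced on an Illumina NovaSeq and name HISAT2 for the read counts and StringTie for the FPKM values. Raw read counts per gene and library were deposited. The submitters' processing notes name StringTie and the builds GRCm38 and mm10. Annotation and strand setting are not given in the sources used here. The 5 columns of deposited FPKM values were not used. Columns named WT were read as saline. They cannot be tied to numbered samples, and the p-values measure only the spread between these libraries.

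Counts were filtered in edgeR 4.0.16 (R 4.3.3) by filterByExpr (minimum count 10, minimum total 15), normalized by TMM and compared by the quasi-likelihood test with Benjamini-Hochberg adjustment. The design was written for 3 libraries per group and kept. The common dispersion was 0.111. The floor of 3 counts covers counting error only. Alternatives were the likelihood ratio and exact tests, DESeq2 1.42.0, 3 other scalings, 2 other filters and each library left out. The fit was tested on simulated data. Python 3.11.15 read GENCODE M21 transcripts, in which shared 50-base words were counted, and RefSeq promoters.

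The members and lists were chosen with earlier results of these data known. Named genes were all members, all eIF2 kinases and, in each list, up to 5 genes with the smallest P. Genes that overlap a member, Xpot, Eif2s3y, Xist and a few marker genes are named besides.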

Additional observations from a re-analysis of the deposited data

How the results depend on the processing

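Members with an adjusted p under 0.05, 2 as reported, numbered 4 with the likelihood ratio test, 4 with the exact test, 4 with DESeq2, 5 with library size only and 1 to 2 with a library left out (1 without APAP3 or without WT2). Members past the study's thresholds, 6 as reported, numbered 2 to 7 with a library left out, 2 without APAP3 and 3 without WT2. Pathway genes at the adjusted p, 15 as reported, numbered 24 with DESeq2, 23 with library size only and 5 to 12 with a library left out. All genes at the adjusted p, 993 as reported, numbered 1835 with the likelihood ratio test, 1776 with the exact test, 2093 with DESeq2 and 165 to 922 with a library left out. Smaller groups leave fewer degrees of freedom, and otherwise the cause was not tested. The sign turned for Atf5 with library size only (0.23) and without APAP1 (0.042, with -0.38 to 0.042 over the libraries left out), for Sesn2 with DESeq2 (-0.035), size factors (-0.036), without APAP3 (-0.024) and without WT3 (-0.058, with -0.058 to 0.053 over the libraries left out), for Fgf21 without APAP3 (-0.97, with -0.97 to 3.70 over the libraries left out), for Eif2ak1 with library size only (0.030) and for Lonp1 with library size only (0.12). Of 128 refits of single members, 108 kept their sign and their side of the threshold, 2 lost a call, 11 gained one and 7 turned. No paired analysis was possible because the saline columns carry no number that ties them to a numbered saline sample. With 2 APAP libraries, only large or steady changes can pass, and at 3 to 8 counts the saline level of Asns is imprecise.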

Other observations

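Mitochondrial chaperones and proteases, whose genes respond to mitochondrial stress, had 2 of 7 genes higher at the adjusted p. Of all genes, 3.70% were called higher. No other gene of this list passed, and its median log2 fold change was 0.31, beside 0.03 for all genes. Hspe1, which encodes the co-chaperonin HSP10, was at 272 and 329 CPM in APAP1 and APAP3 and at 71.5, 64.8 and 69.7 CPM in WT1, WT2 and WT3, and rose by 2.13 on the log2 scale (adjusted p 0.00471 by edgeR's quasi-likelihood test). Hspd1, its partner HSP60, was at 817 and 1044 CPM against 307, 269 and 294 CPM and rose by 1.68 (adjusted p 0.0147), with the call lost without APAP3 or WT2. Of their 50-base words, 36.1% and 44.8% also occur in other annotated genes, so their counts are less certain. Lonp1, a mitochondrial protease gene that is also an ATF4 target, had -0.28 (adjusted p 0.451).

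Close relatives of the members were mostly not higher, with 2 of 7 tested genes fitted above saline and 0 passing in edgeR's quasi-likelihood test. With DESeq2 2 passed, beside 2093 of all 13734 genes. In edgeR's test 1 was higher and 1 lower at an unadjusted P under 0.05. The same counts held at the study's thresholds, where 1696 of all genes were higher and 1532 lower. Trib1, a relative of Trib3, was at 121 and 248 CPM against 30.8, 33.8 and 74.4 CPM (log2 fold change 1.99, adjusted p 0.0521). Chac2, a relative of Chac1, was at 13.98 and 23.4 CPM against 41.1, 43.8 and 38.5 CPM (-1.14, adjusted p 0.0523). Both passed in the likelihood ratio test, with adjusted p of 0.00172 and 0.0106. Of 5 tested receptor genes for the secreted members, 0 passed in edgeR's quasi-likelihood test or in DESeq2. In edgeR's test 1 was lower at an unadjusted P under 0.05, also at the study's thresholds. Klb, the co-receptor of FGF21, was at 22.7 and 28.1 CPM against 48.8, 29.0 and 43.7 CPM (-0.67, adjusted p 0.192).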
